A study of Homo sapiens with 3 samples.

Results

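The genes described here are 10 conjugating enzymes of drug metabolism, chosen by name with earlier results of these data known. All are among the 20037 protein-coding genes placed on the nuclear chromosomes. They are SULT1A1 and SULT1A2 (sulfation), UGT1A1, UGT2B7 and UGT2B15 (glucuronidation), TPMT (methylation), GSTP1 and GSTM1 (glutathione transfer) and NAT1 and NAT2 (acetylation). The data were the SOX4 and STAT6 peak lists of Hep3B, a long-established cell line from a human liver cancer, profiled by CUT&RUN per the study's methods (the labels write ChIP), in which a nuclease is led by an antibody to bound chromatin and cuts out the DNA around it. Per the labels there was 1 library with a SOX4 antibody, 1 with a STAT6 antibody and 1 with IgG, a non-specific antibody that gives the background; all came from Hep3B grown in MEM with serum, and the labels name no treatment. Each list was called by the authors against the IgG library, so the lists share their control. No library had a replicate and no read number was given, so no value below carries an error between samples and no p-value was computed. Fold enrichment, the signal of a peak over IgG, was compared within a list.

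Conjugating enzymes attach a polar group to a drug, hormone or toxin, which makes it easier to excrete. Sulfotransferases add sulfate, UDP-glucuronosyltransferases add glucuronic acid, N-acetyltransferases add an acetyl group, methyltransferases add a methyl group and glutathione S-transferases add glutathione. The liver is a main site of these reactions, and the families grew by gene duplication, so that several members lie side by side as close copies. SOX4 and STAT6 are DNA-binding transcription factors. The comparison below asks which of these genes hold peaks of either factor and whether close copies differ.

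Of the 10 genes, 8 held a SOX4 peak within the gene or 1000 bp of its ends, against 6.35% of all protein-coding genes. A STAT6 peak was held by 7, against 1.08%, and a peak in both lists by 7, against 1.03%. Because the genes were chosen with earlier results of these data known, these shares are no test of enrichment. The 7 genes with peaks in both lists were SULT1A1, SULT1A2, UGT1A1, TPMT, GSTP1, NAT1 and NAT2. UGT2B7 held SOX4 peaks alone, and UGT2B15 and GSTM1 held none in either list. The 10 genes together held 18 SOX4 peaks (0.399% of the list of 4513) and 22 STAT6 peaks (2.04% of the list of 1078).

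SOX4 peaks at these genes were higher and wider than most of their list. Of the 18 SOX4 peaks, 14 had a fold enrichment of at least 50, against 13.0% of the whole list. Their median fold enrichment was 89.1, beside 5.83 for the other 4495 SOX4 peaks, and their median width was 2543 bp beside 888 bp. For STAT6 the contrast was smaller, with a median fold enrichment of 9.78 beside 7.26 for the other 1056 peaks and a median width of 1057 bp beside 568 bp. Of the 199 other genes with peaks in both lists, 10 overlapped a peak of the 7 genes (8 UGT1A genes, SGF29 and KDM1B) and were set aside. The median of the highest SOX4 fold enrichment was 109.6 over the 7 genes and 126 over the remaining 189, which still include SULT1A3 and SULT1A4. The highest STAT6 value had a median of 16.4 over the 7 genes and 12.6 over the 189.

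**Figure D1:**
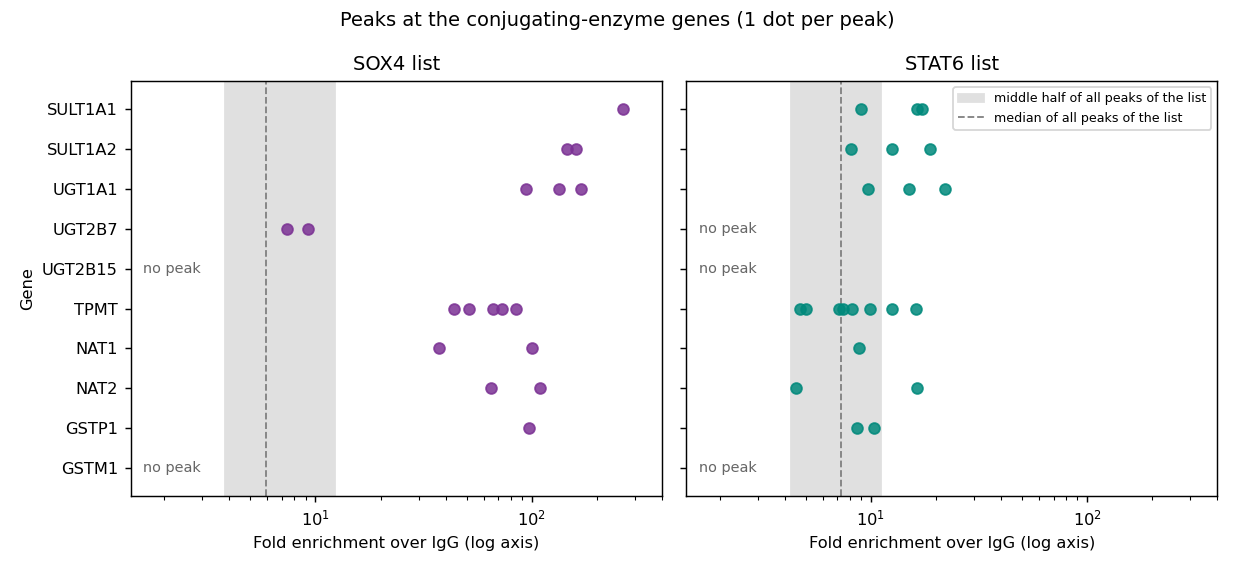
Fold enrichment over IgG of every peak at the 10 genes, with the SOX4 list on the left and the STAT6 list on the right (log axes, 1 dot per peak, no replicates). The grey band spans the quartiles of each whole list and the dashed line is its median; all SOX4 dots outside UGT2B7 lie above the band, while STAT6 dots lie both inside and above it.

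By highest SOX4 fold enrichment the genes ranked SULT1A1 (264), UGT1A1 (168), SULT1A2 (160.2), NAT2 (109.6), NAT1 (100.4), GSTP1 (96.8), TPMT (84.8) and UGT2B7 (9.19). By highest STAT6 fold enrichment the order was UGT1A1 (22.1), SULT1A2 (18.8), SULT1A1 (17.3), NAT2 (16.4), TPMT (16.2), GSTP1 (10.3) and NAT1 (8.85). The sulfotransferases and UGT1A1 thus came before the other genes in both lists. The UGT1A1 values came from peaks at its higher end that also overlap the other UGT1A genes. Its peaks at the start site had 134 (SOX4) and 15.0 (STAT6), and the latter is below the values of NAT2 and TPMT. How reads that match several SULT1A copies were placed is not given, so the sulfotransferase values may share reads. Without replicates it is unknown which neighbours in these orders differ beyond experimental error.

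Each of the 22 STAT6 peaks lay wholly inside a SOX4 peak, a share of 100% (Wilson 95% interval 85.1% to 100%, counting error over peaks only). The interval treats the peaks as independent, although they lay in 15 SOX4 peaks at 7 genes, and it may be too narrow. Over the other 1056 STAT6 peaks of the list the share wholly inside a SOX4 peak was 76.1%, so such nesting was common throughout the list. The share at these genes fell to 31.8% (7 of 22) when the overlap had to span at least 50% of each peak, beside 15.0% of the other peaks. With summits no more than 200 bp apart it was 50% (11 of 22), beside 49.4% of the others. Of the 18 SOX4 peaks, 15 contained a STAT6 peak, and 5 of these contained more than 1. The share of all 4513 SOX4 peaks with a STAT6 peak was not counted. Over the whole lists, 848 STAT6 peaks overlapped a SOX4 peak. The SOX4 peaks with a STAT6 peak had fold enrichments of 43.9 to 264, and the 3 without had 7.41 to 37.2. From each of the 15 SOX4 summits the nearest STAT6 summit within that peak was between 4 and 1272 bp away, with a median of 61.0 bp. The shared IgG control means that peaks of the lists at a site are not independent; its part in the overlap was not tested.

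**Figure D2:**
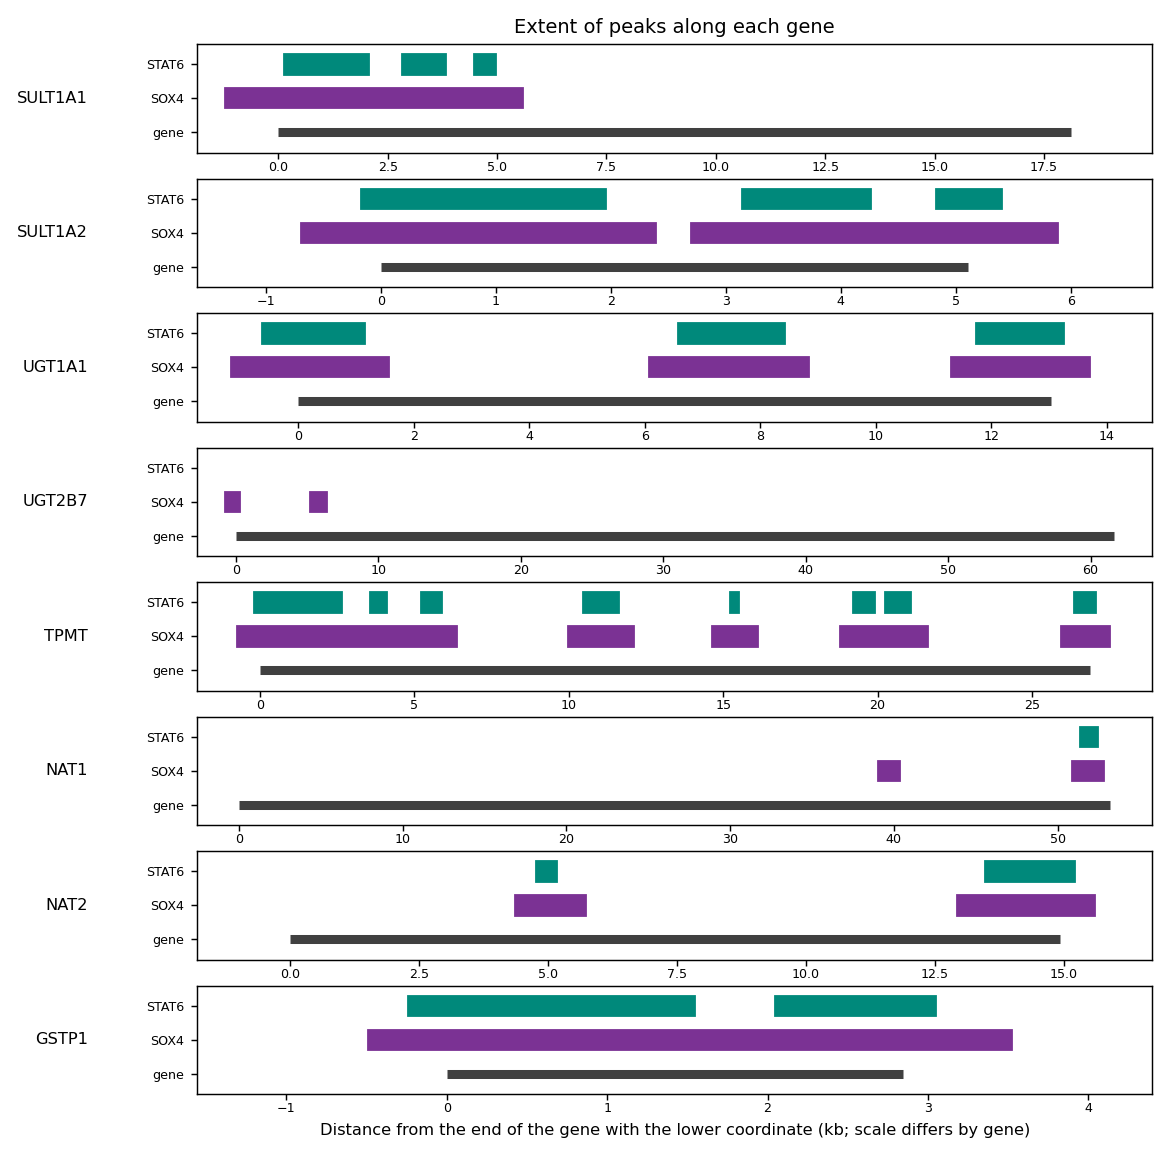
Extent of SOX4 (purple) and STAT6 (green) peaks along the 8 genes that held a peak, in kb from the end with the lower coordinate, with the gene as a dark bar and a scale of its own for each gene. Every STAT6 bar stands above a SOX4 bar, and GSTP1 lies wholly within its SOX4 peak.

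Over the 10 genes together, peaks covered a larger share of the gene bodies than of flanks farther out. SOX4 peaks covered 18.3% of the 225697 bp of the 10 gene bodies and 2.40% of equally long flanks that began 5000 bp beyond each end. STAT6 peaks covered 10.6% of the bodies and 1.25% of the flanks. The stretch between a gene end and its flank was not measured, and several peaks reached past a gene end. The genes were chosen with earlier results of these data known, so this contrast is a description and no test. Of the 20 flanks, 3 held SOX4 coverage and 2 held STAT6 coverage. Those with both lie beside SULT1A1 and SULT1A2, where the flank of each gene reaches into the other, and the remaining SOX4 flank lies below NAT2. For SOX4 the covered share of a body ran from 100% at GSTP1 and 94.1% at SULT1A2 to 6.28% at NAT1 and 2.37% at UGT2B7, and it was 0 at UGT2B15 and GSTM1.

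**Figure D3:**
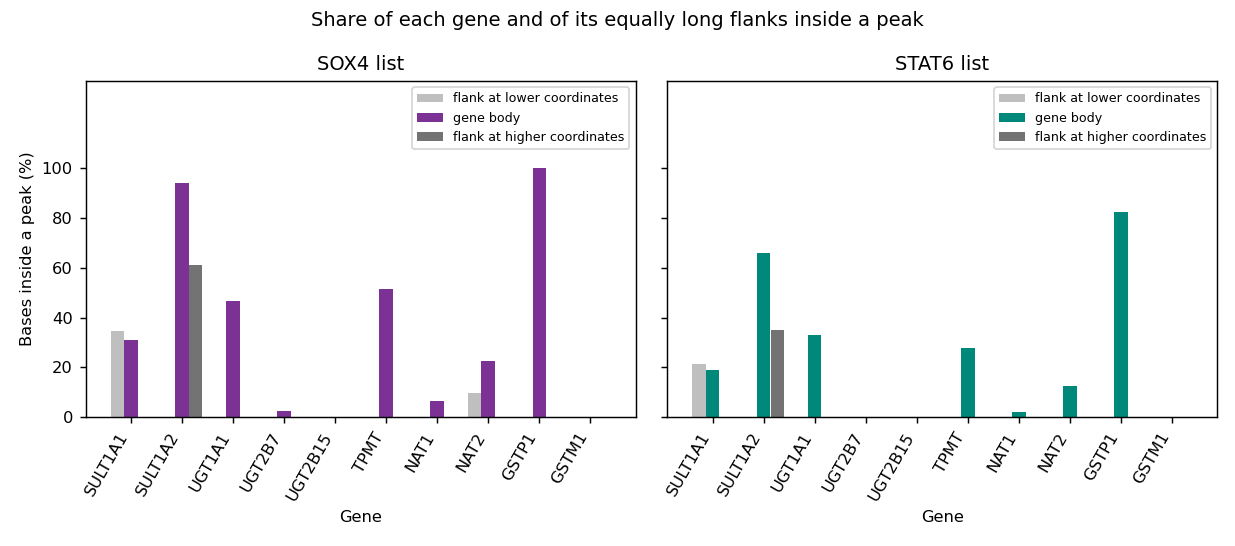
Percent of bases inside a peak for each gene body (coloured) and for the equally long stretch starting 5000 bp beyond its lower (light grey) and higher (dark grey) end, without replicates. Outside the SULT1A pair, whose flanks overlap the partner gene, and the lower SOX4 flank of NAT2, every flank is at 0.

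SULT1A1 and SULT1A2 encode phenol sulfotransferases, which sulfate small phenols such as drugs and oestrogens, and lie 8207 bp apart on chromosome 16. At SULT1A1 (28605258 to 28623375, GRCh38) the single SOX4 peak ran from 28604038 to 28610840 with a fold enrichment of 264, the highest value of the SOX4 list. It contained 3 STAT6 peaks, from 28605378 to 28607337 (17.3), from 28608087 to 28609093 (16.3) and from 28609742 to 28610228 (9.02). These peaks occupied the end with the lower coordinate, and no peak lay in the remaining part of the 18118 bp gene. SULT1A2 (28591943 to 28597050) is shorter at 5108 bp and was covered nearly throughout, by SOX4 peaks from 28591243 to 28594334 (145) and from 28594636 to 28597828 (160.2). Its STAT6 peaks had fold enrichments of 12.6, 18.8 and 8.06. Peaks of both genes reached into the stretch between them, and no further peak of either list lay there.

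The distant copies SULT1A3 and SULT1A4, also on chromosome 16, encode an enzyme known for sulfating dopamine and other catecholamines. SULT1A3 held a SOX4 peak with a fold enrichment of 171 and STAT6 peaks of 11.4 and 13.1. It also held a SOX4 peak of 2.63, rank 4321 of the list. SULT1A4 held a SOX4 peak of 152 and a pair of STAT6 peaks, the higher at 13.5. All 4 copies therefore held peaks of both lists, with a highest SOX4 value of at least 152, and SULT1A1 alone exceeded 200.

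By coordinate, the layout of the STAT6 peaks was alike within each pair of copies. Strand was not used, so this order need not follow the direction of transcription. From the lower end, the STAT6 summits lay at 1720, 3414 and 4740 bp in SULT1A1 and at 1571, 3570 and 5062 bp in SULT1A2, with widths falling from 1960 to 1007 and 487 bp and from 2134 to 1125 and 582 bp. In SULT1A3 they lay at 1774 and 4615 bp and in SULT1A4 at 1720 and 4306 bp, with widths rising from 1040 to 1906 bp and from 1034 to 1768 bp. The RefSeq windows of 250 bases before to 50 after the start site of SULT1A3 and SULT1A4 were identical at 100% of their 300 bases, and reads from such copies cannot be told apart there. How the authors placed reads that match several copies is not given in the sources used here, so the values of the 4 genes cannot be taken as separate measurements.

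**Figure D4:**
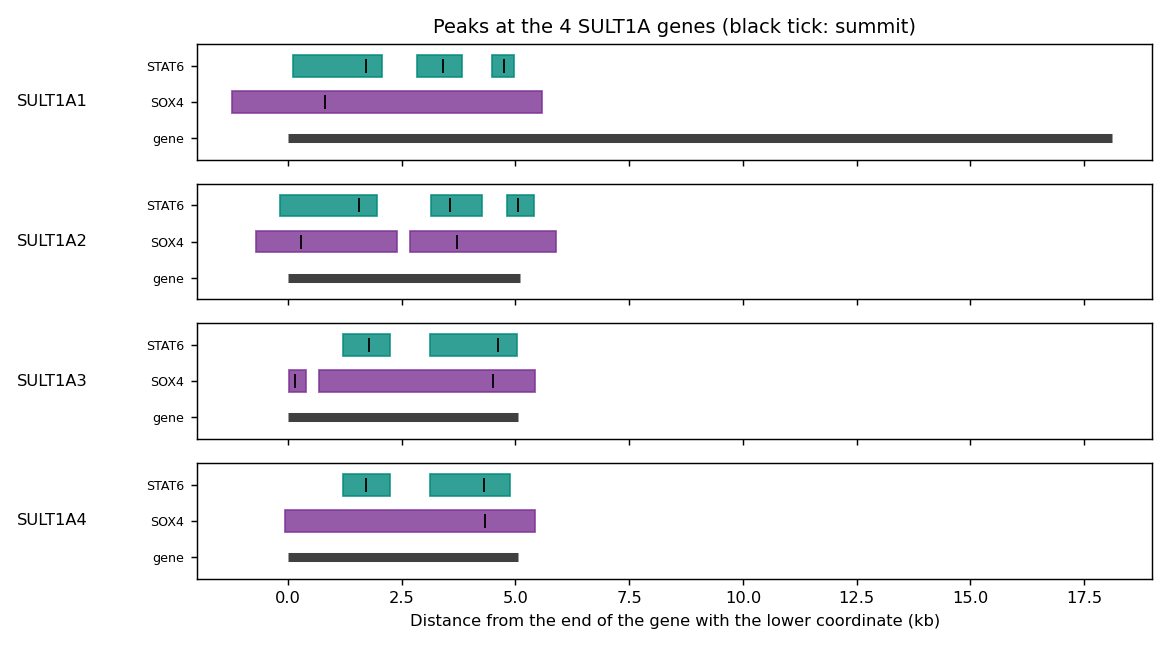
SOX4 (purple) and STAT6 (green) peaks at the 4 SULT1A genes in kb from the end with the lower coordinate, drawn on a common scale with summits as black ticks. By coordinate, SULT1A1 and SULT1A2 show 3 STAT6 peaks that narrow from left to right, and SULT1A3 and SULT1A4 show 2 that widen. Strand was not used, so the pairs may not differ along the direction of transcription.

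UGT1A1, the enzyme that conjugates bilirubin, lies on chromosome 2 from 233760270 to 233773300. It belongs to a locus where alternative first exons, each with a start site of its own, are joined to a common set of downstream exons, and UGT1A1 has the most downstream start site. Its SOX4 peaks ran from 233759094 to 233761832 (134), from 233766338 to 233769117 (93.5) and from 233771574 to 233773977 (168). Each contained 1 STAT6 peak, with fold enrichments of 15.0, 9.67 and 22.1, the last at rank 9 of the STAT6 list. The paired summits were 45, 10 and 72 bp apart. The first pair sat on the UGT1A1 start site, with the SOX4 summit 22 bp and the STAT6 summit 67 bp downstream of it.

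The promoter window of UGT1A1 is shown because both peaks covered it entirely. It spans chr2:233760020-233760319 (RefSeq, GRCh38.p14, plus strand), and capitals mark a match to ACAAAG on the opposite strand, 111 bases before the start site.
UGT1A1: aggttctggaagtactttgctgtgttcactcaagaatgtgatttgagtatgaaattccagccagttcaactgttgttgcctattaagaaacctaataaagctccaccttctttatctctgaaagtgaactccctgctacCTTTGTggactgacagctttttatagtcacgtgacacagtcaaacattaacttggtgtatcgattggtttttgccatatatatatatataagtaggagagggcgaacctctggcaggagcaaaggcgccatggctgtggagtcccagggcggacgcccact

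The other UGT1A start sites that were listed lay outside any peak. The gene span of each of the other 8 UGT1A genes runs to the common end, so all 8 overlap the 3 UGT1A1 peaks of each list. Start sites were listed for 7 of them, UGT1A3 to UGT1A9. The nearest STAT6 peak was the one at the UGT1A1 start for all 7, at distances from 30.6 kb for UGT1A3 to 142 kb for UGT1A8. The nearest SOX4 peak to the start sites of these 7 was 23.5 to 50.8 kb away. In the 143 kb between the lower end of UGT1A8 and UGT1A1, the 1 further SOX4 peak had a fold enrichment of 4.13 and no STAT6 peak was present. The summit of that SOX4 peak lay 5160 bp from the lower end of UGT1A10, whose start site was not listed.

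**Figure D5:**
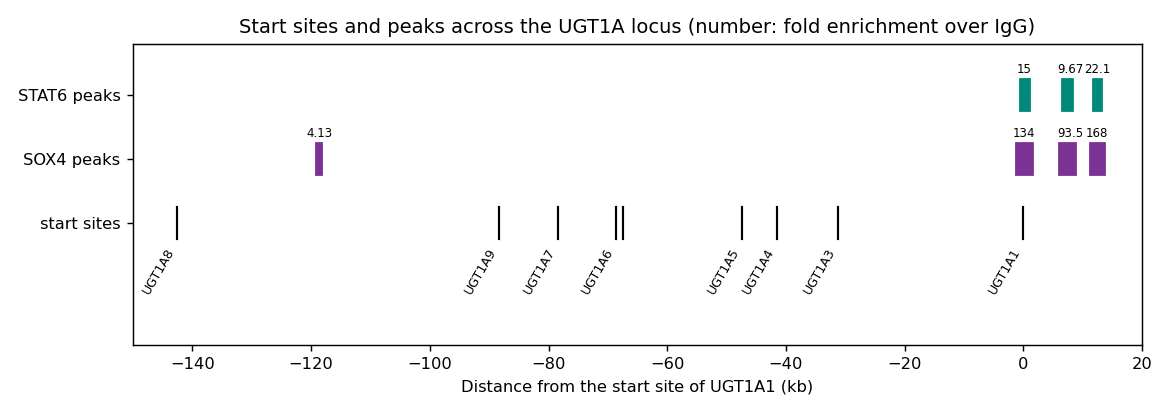
Start sites (black ticks) and peaks of the UGT1A locus in kb from the start site of UGT1A1, with each peak's fold enrichment printed above it. All 3 STAT6 peaks and 3 of the 4 SOX4 peaks lie at UGT1A1 and downstream of it, and the remaining SOX4 peak, at 4.13, lies 119 kb upstream.

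The UGT2B enzymes, which glucuronidate morphine (UGT2B7) and steroid hormones such as androgens (UGT2B15), stood apart from UGT1A1. UGT2B7 on chromosome 4 (69051375 to 69112987) held SOX4 peaks of 7.41 and 9.19, ranks 1790 and 1440, and no STAT6 peak. Both lay at the lower end of the annotated gene, 45.2 and 39.2 kb before the start site of its RefSeq window. UGT2B15 (68646597 to 68670652) held no peak, and its nearest SOX4 peak was 76.0 kb away, inside UGT2B17, with a fold enrichment of 4.37. The nearest STAT6 peak lay 4825 kb from UGT2B7 and 5267 kb from UGT2B15.

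The windows of this pair are shown as close copies without a peak. They agreed at 67.0% of 300 bases after alignment. Capitals mark ACAAT on the opposite strand, 77 bases before the start site of UGT2B7 (chr4:69096224-69096523, plus strand) and 186 bases before that of UGT2B15 (chr4:68670603-68670902, minus strand).
UGT2B7: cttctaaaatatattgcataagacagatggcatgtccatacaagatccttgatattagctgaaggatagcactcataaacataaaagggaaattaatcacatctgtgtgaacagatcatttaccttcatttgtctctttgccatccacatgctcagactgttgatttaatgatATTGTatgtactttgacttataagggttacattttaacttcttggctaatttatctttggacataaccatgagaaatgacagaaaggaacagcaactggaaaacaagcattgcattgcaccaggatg
UGT2B15: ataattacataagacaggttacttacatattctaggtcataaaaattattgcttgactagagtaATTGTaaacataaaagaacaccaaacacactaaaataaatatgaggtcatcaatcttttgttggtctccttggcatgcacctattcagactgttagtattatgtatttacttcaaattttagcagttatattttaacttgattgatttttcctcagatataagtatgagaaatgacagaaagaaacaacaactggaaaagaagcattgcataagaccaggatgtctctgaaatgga

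TPMT inactivates thiopurine drugs by methylation and lies on chromosome 6 from 18128311 to 18155169. With 5 SOX4 and 8 STAT6 peaks it held the most of the 10 genes. The SOX4 peaks had fold enrichments of 65.9, 72.7, 51.4, 84.8 and 43.9 in order of coordinate and covered 51.3% of the gene. The STAT6 peaks had 16.2, 7.46, 8.16, 7.16, 4.70, 9.88, 12.5 and 5.01 in the same order and covered 27.7%. The peaks were spread along the whole gene, and the lowest SOX4 value was the one at the start site. In each of the 5 SOX4 peaks a STAT6 summit lay 19 to 90 bp from the SOX4 summit.

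RefSeq lists a pair of start sites for TPMT, and the window of the downstream one is shown because it holds the SOX4 summit, 23 bp downstream of the start. Both lists covered it at 100%, and the STAT6 summit lay 113 bp downstream of the start. It spans chr6:18155028-18155327 (minus strand), 75.7% of its bases were G or C, and none of the letters searched was present, hence no capitals.
TPMT: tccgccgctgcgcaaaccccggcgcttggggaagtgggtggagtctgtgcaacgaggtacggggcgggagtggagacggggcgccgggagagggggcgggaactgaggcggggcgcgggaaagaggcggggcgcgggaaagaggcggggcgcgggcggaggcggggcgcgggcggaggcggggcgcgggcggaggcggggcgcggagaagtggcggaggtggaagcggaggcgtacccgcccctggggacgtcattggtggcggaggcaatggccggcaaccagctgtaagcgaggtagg

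Among the other methyltransferases described here, NNMT, which methylates nicotinamide, held 1 SOX4 peak of 6.67 and no STAT6 peak, and HNMT, INMT and PNMT held none.

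GSTP1 and GSTM1 belong to the pi and mu classes of glutathione S-transferases, which detoxify electrophiles. GSTP1 on chromosome 11 (67583812 to 67586653) lay wholly within a SOX4 peak from 67583322 to 67587338 with a fold enrichment of 96.8. Its STAT6 peaks ran from 67583574 to 67585359 (10.3) and from 67585860 to 67586864 (8.65) and covered 82.4% of the gene. The SOX4 summit and the nearer STAT6 summit were 4 bp apart and lay 701 and 705 bp downstream of the start site, inside the gene. GSTM1 on chromosome 1 (109687817 to 109693745) held no peak, nor did its neighbours GSTM2, GSTM3, GSTM4 and GSTM5. The RefSeq windows of GSTM1 and GSTM5 agreed at 86.7% of their bases, and how reads that match several copies were placed is not given. The lack of a peak at GSTM1 therefore cannot be read as a lack of binding. GSTM1 lay 597 kb from its nearest SOX4 peak, which had a value of 3.83 over IgG, and 5984 kb from any STAT6 peak.

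The windows of both are shown as GC-rich promoters that differ in coverage by peaks. The number of copies of either gene in Hep3B is not given in the sources used here. The GSTP1 window, chr11:67583562-67583861 (plus strand), was covered at 100% by SOX4 and 96.0% by STAT6 peaks. The GSTM1 window, chr1:109687567-109687866 (plus strand), was covered by neither. G and C made up 74.0% and 69.0% of their bases, against a median of 58.7% over all windows, and none of the letters searched was present.
GSTP1: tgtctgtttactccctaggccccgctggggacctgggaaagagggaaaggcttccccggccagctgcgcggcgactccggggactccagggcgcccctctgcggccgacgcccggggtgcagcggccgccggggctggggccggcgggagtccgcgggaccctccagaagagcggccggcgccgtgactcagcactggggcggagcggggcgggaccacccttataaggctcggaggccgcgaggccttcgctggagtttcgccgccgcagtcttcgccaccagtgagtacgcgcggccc
GSTM1: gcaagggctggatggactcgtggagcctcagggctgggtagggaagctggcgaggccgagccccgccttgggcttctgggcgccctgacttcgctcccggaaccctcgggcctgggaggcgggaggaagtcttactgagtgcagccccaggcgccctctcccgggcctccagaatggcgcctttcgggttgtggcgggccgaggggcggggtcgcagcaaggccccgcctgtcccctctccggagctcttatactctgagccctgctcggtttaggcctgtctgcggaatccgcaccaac

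Windows were found for 6 of the 10 genes and were searched on both strands. Letters known from SOX binding sites were ACAAAG, held by 16.1% of all 35116 windows of 300 bases, and a shorter form. The shorter form, ACAAT, was held by 27.4%. For STAT6 and other STAT proteins the search was for TTC and GAA with 4 bases between them (6.44% of windows) or 3 (7.66%). At the 6 genes the longer SOX form occurred at UGT1A1 and the shorter at UGT2B7 and UGT2B15, no matches overlapped, and neither STAT form was found. The windows under peaks at TPMT and GSTP1 held no match, and windows without a peak held some. Sequence under the peaks outside these windows was not analysed here.

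NAT1 and NAT2, the arylamine N-acetyltransferases that acetylate drugs such as isoniazid (NAT2), lie 163 kb apart on chromosome 8. NAT1 (18170467 to 18223689) held SOX4 peaks of 37.2 and 100.4 and a STAT6 peak of 8.85 that lay in the higher of these. NAT2 (18386301 to 18401218) held SOX4 peaks of 64.7 and 109.6 and STAT6 peaks of 4.51 and 16.4. In each gene the higher SOX4 peak lay near the end with the higher coordinate, with its summit 1403 bp before that end in NAT1 and 958 bp in NAT2. The other SOX4 peak lay inside the gene, and in NAT2 alone it contained a STAT6 peak, the one of 4.51. That STAT6 peak had a −log10 q of 4.86, the lowest of the 40 peaks at these genes. Whether the pair differs beyond experimental error could not be tested with 1 library of each kind.

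NATP, a pseudogene of this family between NAT1 and NAT2, was added after its values were seen. A SOX4 peak from 18370409 to 18371853 covered 73.4% of its 1969 bp with a fold enrichment of 22.4, rank 819, and no STAT6 peak was present. It accounts for the covered flank below NAT2 and was the only peak of either list between the windows of the gene pair.

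Across the related families, 72 genes were listed and 71 had a place on a chromosome. Of the 61 that are not among the 10, 13 held a SOX4 peak and 10 a STAT6 peak, and all 10 with a STAT6 peak held both. They were SULT1A3, SULT1A4 and the 8 UGT1A genes that share the UGT1A1 peaks, so the SULT1A copies were the ones of the 61 with peaks of their own in both lists. The 3 genes with SOX4 peaks alone, UGT2B17 (4.37), NNMT (6.67) and PAPSS2 (4.19), which makes the sulfate donor, each had 1 peak under a fold enrichment of 10. No peak was found at the other 9 sulfotransferases, at 19 of 20 glutathione S-transferases, at 11 of 13 UGT2, UGT3 and UGT8 genes or at 3 of 5 acetyltransferases (AANAT, NAT8 and NAT8B). Of 6 genes that make the donors, 5 held none. Genes without a peak included the well-known liver enzymes SULT2A1, UGT2B4 and GSTA1.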

How the data were processed

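CUT&RUN libraries of Hep3B cells with SOX4, STAT6 or IgG antibodies (1 each) were sequenced as paired ends by the authors. Per the labels' processing notes they used BWA, Partek and build hg38; versions and the peak threshold are not given in the sources used here. The deposited SOX4 and STAT6 peak lists give each peak a ratio to IgG (fold enrichment), a −log10 q, a −log10 p and a score, of which the last pair was not used. The IgG library entered only through the authors' calls, and depth is unknown.

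Positions were made 1-based and set beside RefSeq genes of GRCh38.p14, a table without strand or exons; GSTT1, which it places at 270308 on chromosome 22, before all ordinary genes, was left out. A gene held a peak when the peak overlapped it or 1000 bp on either side by at least 1 bp. Covered bases were counted once. Promoter windows came from RefSeq and were compared by global alignment with free ends, as identical bases of 300 (Biopython 1.88). The functions were tested on simulated data. Python 3.11.15, numpy 2.4.6, pandas 2.3.3, scipy 1.17.1 and matplotlib 3.10.9 were used.

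The share of overlapping peaks over the whole STAT6 list and the medians without genes that share a peak were computed after the other values were seen. The genes and lists were chosen with earlier results of these data known. Named were the 10 genes with their peaks, other genes of the families with a peak, and the nearest peaks of genes without. SGF29 beside SULT1A2 and KDM1B beside TPMT were also overlapped by these peaks. Protein sequences were not compared here, and 1 gene of the families is not reported here.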

Additional observations from a re-analysis of the deposited data

How the results depend on the processing

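Over 8 results, 36 alternatives were run, and 34 stayed within a factor of 1.5 for counts and covered shares or within the Wilson interval for the share of peaks. The share of STAT6 peaks at these genes overlapping a SOX4 peak, 100% as reported, was 31.8% (7 of 22) when the overlap had to reach 50% of the length of each peak and 50% (11 of 22) with summits within 200 bp. The cause was not tested. The numbers of genes with SOX4 peaks (8), STAT6 peaks (7) and both (7) were the same with no margin, a margin of 3000 bp, a −log10 q or a fold enrichment of at least 5, and summits in place of whole peaks. STAT6 peaks numbered 21 with the minimum on q and 20 with that on fold enrichment. No paired analysis was possible because only 1 library was made per antibody. Leaving out a replicate was not possible for the same reason, and with unknown depth a gene without a peak cannot be called unbound.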

Other observations

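The surroundings of the 7 genes with peaks in both lists are given here by the next SOX4 peak outside each gene. For STAT6 the nearest peak is given for TPMT and GSTP1 alone. Around UGT1A1 the next SOX4 peaks lay 118 kb below (fold enrichment 4.13) and 1328 kb above (3.81). Beyond the SULT1A pair, the next SOX4 peak lay 597 kb below SULT1A2 at GSG1L (fold enrichment 17.4) and 836 kb above SULT1A1 at SULT1A4. Around TPMT the next SOX4 peaks were 313 kb away at KIF13A (6.43) and 772 kb away at no protein-coding gene (5.86), and around GSTP1 they were 95.2 kb (3.72) and 1137 kb (2.34) away. The nearest STAT6 peaks were 3439 kb from TPMT at the gene SOX4 (9.68) and 4366 kb from GSTP1 at SLC22A25 (5.37). NAT1 had its next SOX4 peak below at PCM1 (173 kb, 3.28), and NAT2 its next above at PSD3 (266 kb, 4.56). These distances were not tested.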
